A study of Mus musculus with 12 samples.

Results

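Meis1, Meis2, Meis3, Pbx2, Pbx3, Pbx4, Pknox1, Pknox2 and Tgif1 encode homeodomain transcription factors of the TALE class, and binding of the histone acetyltransferase MOF at these genes was examined in mouse visceral white adipose tissue. The 9 genes, of 21938 protein-coding genes on chromosomes 1 to 19, X and Y, do not make up every TALE gene. They were chosen by name with peak positions and fold enrichments of these data already known, so what follows is a description of those values, with no test over the members. A MOF peak was counted for a gene when it overlapped, by at least 1 bp, the gene body or the 3 kb around any annotated start site.

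MOF (KAT8) acetylates lysine residues of histone H4 and is found in complexes that bind promoters. Chromatin immunoprecipitation followed by sequencing (ChIP-seq) was made on visceral fat of C57BL/6 mice (C57BL/6J in the study's methods), 8 weeks old and kept on a standard diet, with both copies of Mof (Mof+/+) or with 1 copy lost (Mof+/-). Per the labels, 12 libraries fell into 6 groups of 2, with ChIP for MOF, ChIP for histone H3 and input in each genotype. For MOF, 1 peak list per genotype was analysed, which leaves the variation from animal to animal unmeasured. Fat was taken whole, and the labels name no sorting of cells. Fewer cells with MOF at a site and less MOF per cell cannot be told apart in such tissue. The design text of the series names 2 control and 3 Mof+/- animals, whereas the labels give 2 MOF libraries per genotype. The reporting summary gives 2 littermates of each genotype. Whether replicates were pooled for peak calling is not stated.

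TALE proteins carry extra residues in a loop of the homeodomain, through which many of them contact partner proteins. MEIS and PKNOX (also called PREP) proteins pair with PBX proteins, which holds PBX in the nucleus, and the pairs bind DNA together with HOX proteins during patterning and in blood cells. TGIF1 is a repressor that recruits histone deacetylases to SMAD proteins and thereby dampens transforming growth factor beta signalling. In metabolic tissue, PREP1, the product of Pknox1, is known for its effect on insulin sensitivity in mice.

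In Mof+/+ tissue, 6 of the 9 genes held a MOF peak (66.7%, 95% Wilson interval 35.4 to 87.9), namely Meis1, Meis2, Pbx2, Pbx3, Pknox1 and Tgif1. The same was true of 44.5% of all protein-coding genes. In Mof+/- tissue, 3 of the 9 held a peak (33.3%, 12.1 to 64.6), namely Meis1, Meis2 and Tgif1, against 1.89% of all protein-coding genes. Those 3 were among the 6, and of all coding genes with a Mof+/+ peak 4.06% also had a Mof+/- peak. Meis3, Pbx4 and Pknox2 had none in either list. With only the 1 kb around start sites counted, the numbers were again 6 and 3, where the background was 41.0% and 1.32%. Because the presence of peaks entered the choice of the genes, nothing is read from these shares beyond their size.

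The 6 genes carried 14 Mof+/+ peaks and 6 Mof+/- peaks between them. All 14 and all 6 lay within 1 kb of an annotated start site of some gene, compared with 55.8% of the whole Mof+/+ list and 55.7% of the whole Mof+/- list. Among peaks counted for any protein-coding gene by the same window, those shares were 64.9% and 65.9%. Peak positions entered the choice of the members, so the contrast is given as a description. A start site of the member itself was covered by 5 of the 14 and by 3 of the 6. Of the 14 Mof+/+ peaks, 3 overlapped a Mof+/- peak (21.4%, 7.57 to 47.6), where 2.44% of all Mof+/+ peaks and 2.43% of those counted for any coding gene did. In the other direction 6 of 6 overlapped (100%, 61.0 to 100), against 84.8% of the Mof+/- list. Of its peaks counted for any coding gene 86.9% did. Both Wilson intervals take peaks as independent, although the 14 peaks come from 6 genes. Of the 6 Mof+/- peaks, 4 overlap the same Mof+/+ peak, at Tgif1. The map of peaks around the 5′ ends shows the arrangement gene by gene.

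**Figure D1:**
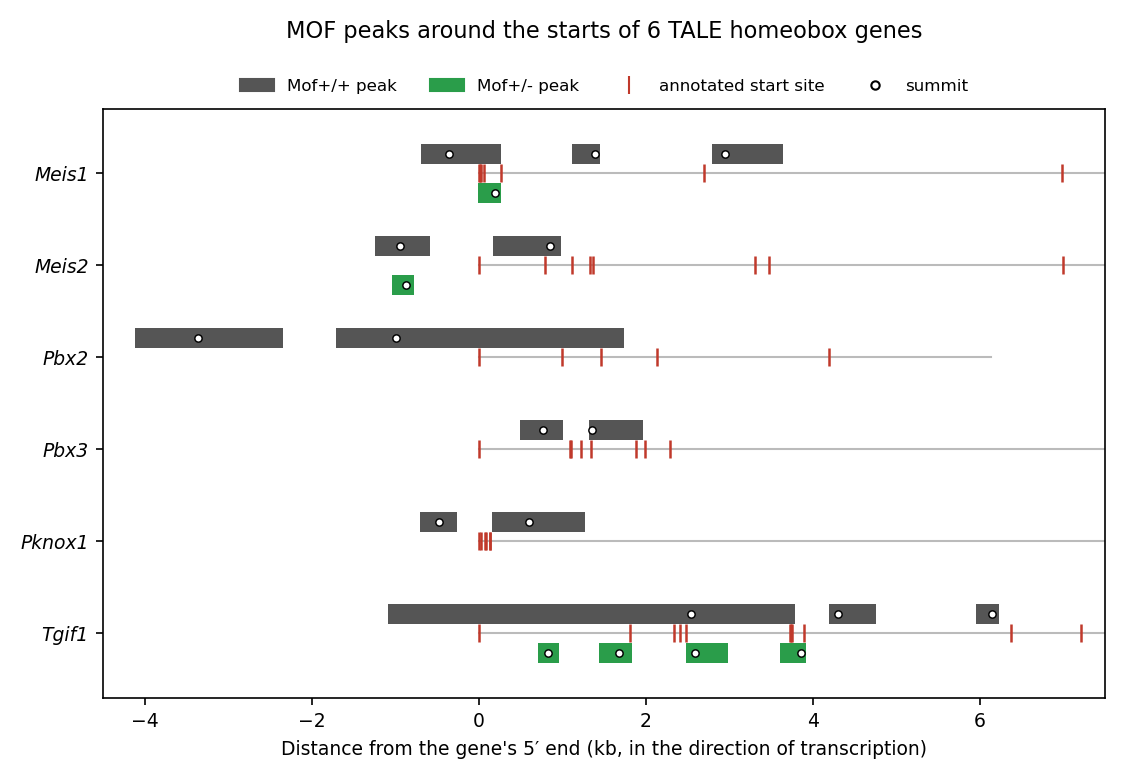
Position of MOF peaks around the 5′ end of the 6 genes that had any, in kb along the direction of transcription. Dark bars above each gene line are Mof+/+ peaks, green bars below it are Mof+/- peaks, circles are summits and red ticks are annotated start sites. Tgif1 has 4 Mof+/- peaks, Meis1 and Meis2 have 1 each, and Pbx2, Pbx3 and Pknox1 have none.

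The sequences around 6 summits are shown so that the DNA under peaks of the genes called in both lists (Meis1, Meis2 and Tgif1) can be seen beside that of Pbx3 and Pknox1, called in Mof+/+ alone. They are examples among the summits whose 121 bases hold no UTR sequence, picked with their content known, and they come from both genotypes. Each run holds the 121 bases centred on a summit in GRCm38, read 5′ to 3′ on the strand of the gene, with CpG dinucleotides in capitals. They hold 4 CpG at Meis1, 7 at Meis2, 7 and 3 at the Tgif1 sites, 22 at Pbx3 and 19 at Pknox1. The other summits of Pbx3 and Pknox1, not shown, hold 11 and 8, and the Mof+/+ summit upstream of Meis2 holds 11. Pbx2, also called in Mof+/+ alone, holds 7 and 2 at its summits. The Meis1 stretch lies upstream of the gene, that of Meis2 lies upstream of it in an intron of the noncoding RNA 2700033N17Rik, and the others lie in introns.
Meis1, Mof+/+, chr11:19019279-19019399, minus strand: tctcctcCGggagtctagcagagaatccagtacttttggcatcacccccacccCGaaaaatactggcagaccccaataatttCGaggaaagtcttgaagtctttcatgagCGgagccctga
Meis2, Mof+/-, chr2:116066647-116066767, minus strand: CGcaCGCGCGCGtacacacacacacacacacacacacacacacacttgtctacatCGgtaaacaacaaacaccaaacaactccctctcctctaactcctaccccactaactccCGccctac
Tgif1, Mof+/-, chr17:70851802-70851922, minus strand: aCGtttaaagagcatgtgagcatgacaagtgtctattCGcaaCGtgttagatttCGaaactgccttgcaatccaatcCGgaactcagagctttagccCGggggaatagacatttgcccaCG
Tgif1, Mof+/-, chr17:70852663-70852783, minus strand: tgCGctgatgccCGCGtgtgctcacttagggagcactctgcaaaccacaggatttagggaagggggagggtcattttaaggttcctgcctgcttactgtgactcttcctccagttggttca
Pbx3, Mof+/+, chr2:34372310-34372430, minus strand: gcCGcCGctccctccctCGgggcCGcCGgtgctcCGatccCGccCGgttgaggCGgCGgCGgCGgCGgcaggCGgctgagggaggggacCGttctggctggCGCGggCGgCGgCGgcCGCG
Pknox1, Mof+/+, chr17:31565276-31565396, plus strand: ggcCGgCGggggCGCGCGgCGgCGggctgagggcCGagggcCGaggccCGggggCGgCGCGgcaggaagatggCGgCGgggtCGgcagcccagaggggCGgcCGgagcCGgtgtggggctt

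Each peak is given below with its fold enrichment. This is the ratio of MOF fragments at the summit to the input background, with 1 added to each by the peak caller. It is followed by the number of fragments recovered from that ratio and the p-value, with an exact 95% Poisson interval that covers counting error only. The −log10 q-value is that of the peak caller. Peaks are numbered by rising genome position, and the plots of fold enrichment and fragments give every value.

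**Figure D2:**
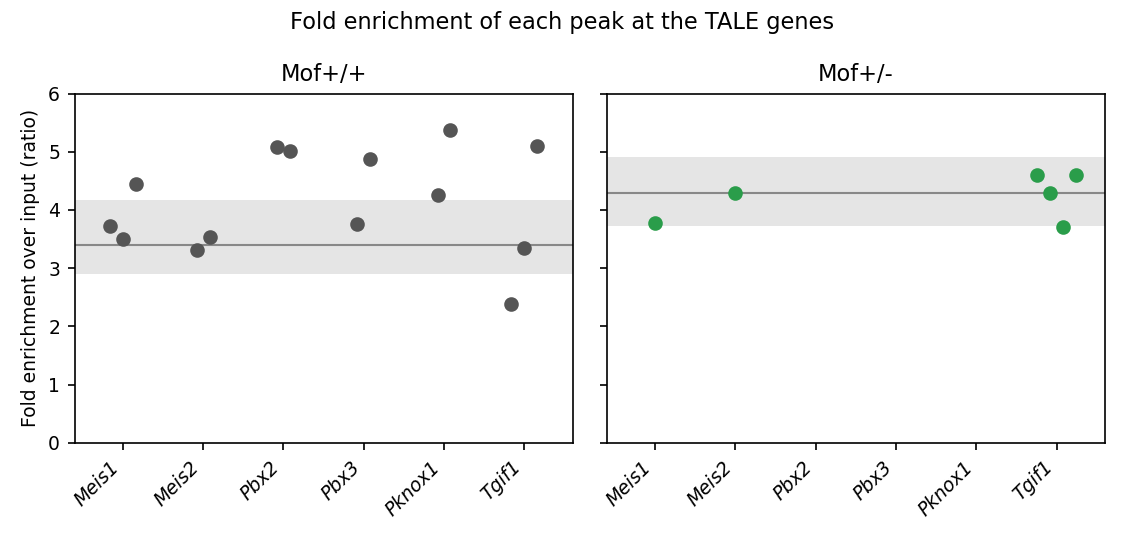
Fold enrichment over input (ratio, vertical axis) of each member peak, by gene, with Mof+/+ and Mof+/- peaks in separate colours. The line is the median and the grey band the quartiles of the whole list, 3.40 (2.90 to 4.17) for Mof+/+ and 4.29 (3.73 to 4.91) for Mof+/-. Of the Mof+/+ peaks 11 of 14 lie above their list's median, and of the Mof+/- peaks 2 of 6.

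Meis1, a cofactor of HOX proteins in blood stem cells and leukaemia, lies on the minus strand of chromosome 11 (18879817 to 19018985) and has 7 annotated start sites. Its strongest Mof+/+ peak, at 19018723 to 19019677, had a fold enrichment of 4.44 from 22 fragments (13.8 to 33.3) and a −log10 q-value of 6.34. It covered 4 of the 7 start sites, and its summit was 354 bp upstream of the gene. The Mof+/- peak, at 19018722 to 19018990, had a fold enrichment of 3.78 from 12 fragments (6.20 to 21) and a −log10 q-value of 1.87. It covered 4 start sites as well, but its summit lay in the 5′ part of the gene, in UTR sequence, 542 bp from the Mof+/+ summit. The pair thus shared a promoter and differed in where the summit fell. Their fragments were counted over input backgrounds of 4.17 and 2.44, so the numbers are not on a shared scale.

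Further into Meis1, the Mof+/+ list held a pair of weaker intronic peaks with no Mof+/- counterpart. The nearer one, 330 bp wide, had its summit 1388 bp into the gene, with a fold enrichment of 3.5 from 17 fragments (9.90 to 27.2). The other, 851 bp wide, had its summit 2955 bp into the gene, with a fold enrichment of 3.72 from 16 fragments (9.15 to 26.0). Its edge was 96 bp from an internal Meis1 start site, and the start of the antisense gene Gm16141 was also within 3 kb. Meis1 was therefore bound at its main promoter in both lists, with the Mof+/- call lost when q had to be 0.01 or less, and around an internal start in the Mof+/+ list.

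Meis2, a close relative of Meis1 that acts in limb, heart and nervous system development, lies on the minus strand of chromosome 2 (115863064 to 116065839) and has 16 annotated start sites. Its Mof+/+ peaks flanked the 5′ end. The one upstream, at 116066423 to 116067079, had a fold enrichment of 3.54 from 15 fragments (8.40 to 24.7) and a −log10 q-value of 3.11. The one inside the gene, at 116064855 to 116065665, had a fold enrichment of 3.32 from 14 fragments (7.65 to 23.5) and covered 1 start site. These were among the weaker peaks of the members, and no other of the 6 genes had a strongest Mof+/+ peak as low.

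The single Mof+/- peak of Meis2, at 116066613 to 116066875, lay inside the upstream Mof+/+ peak, and the summits were 81 bp apart. It had a fold enrichment of 4.29 from 13 fragments (6.92 to 22.2) and a −log10 q-value of 2.69. The fold was thus higher than the 3.54 of Mof+/+ although the fragments were fewer, since the input background was 2.26 in place of 3.52. These are the lowest backgrounds of the whole lists and not values particular to Meis2. As the backgrounds of the lists differed, fold enrichment is not on a shared scale between them. Both summits were nearer to the start of the noncoding RNA G630016G05Rik, which is transcribed from the opposite strand, than to that of Meis2, so nearness alone does not give the peak to Meis2. A further Mof+/- peak, with a fold enrichment of 3.32, was 9391 bp from a Meis2 start site and thus outside the window. The sequence printed for the Mof+/- summit inside the window holds 30 bases of unbroken ca pairs. The same repeat reaches into the window of the Mof+/+ summit with 26 bases of such pairs.

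Pbx2, an ubiquitously expressed partner of MEIS and HOX proteins, is a short gene on the plus strand of chromosome 17 (34591266 to 34597400) among close neighbours. Its Mof+/+ peaks were strong and wide. The peak over the 5′ end was 3458 bp wide and had a fold enrichment of 5.02 from 25 fragments (16.2 to 36.9), with a −log10 q-value of 8.33. It covered 3 of the 5 Pbx2 start sites, while its summit, in an intron of Gpsm3, was 997 bp upstream of Pbx2 and 38 bp from the nearest start site, one of Gpsm3.

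The other Pbx2 peak, 1772 bp wide, had a fold enrichment of 5.09 from 22 fragments (13.8 to 33.3). It was counted for Pbx2 only through the 3 kb window, as its edge was 2350 bp from a Pbx2 start site, and its summit lay in coding sequence of Notch4. Its summit was 3363 bp from the nearest Pbx2 start site and thus past that limit. The nearest Mof+/+ peak outside the window was near Rnf5. It had a fold enrichment of 3.76 and was 7914 bp from the nearest Pbx2 start site. The nearest Mof+/- peak was 326645 bp away. The signal at this locus therefore belongs to a stretch that Pbx2 shares with Gpsm3 and Notch4.

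Pbx3, a partner of MEIS1 in leukaemia that also acts in the nervous system, lies on the minus strand of chromosome 2 (34171457 to 34373142) and has 9 annotated start sites. Its Mof+/+ peaks lay 306 bp apart, both inside the gene near its 5′ end. The stronger, at 34372129 to 34372651, had its summit in an intron 772 bp into the gene and a fold enrichment of 4.87 from 21 fragments (13.0 to 32.1), with a −log10 q-value of 6.85. The weaker, at 34371180 to 34371822, had a fold enrichment of 3.76 from 16 fragments (9.15 to 26.0) and covered 2 start sites. Its summit was in coding sequence, 1 bp from one of those starts. The nearest Mof+/- peak was 3824851 bp away.

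Pknox1, which encodes PREP1, lies on the plus strand of chromosome 17 (31564734 to 31607693) and has 13 annotated start sites, of which 6 lie near the 5′ end. Among the member peaks its stronger Mof+/+ peak ranked highest in fold enrichment, 5.38 from 24 fragments (15.4 to 35.7), with a −log10 q-value of 8.76. That peak, at 31564894 to 31566003, had its summit in an intron, 602 bp into the gene. A smaller peak upstream, at 31564034 to 31564471, had a fold enrichment of 4.25 from 21 fragments (13.0 to 32.1). The 6 start sites near the 5′ end lay in the gap of 422 bp between these peaks, so 0 of 13 start sites were inside a peak although 6 were within 1 kb of one. Both summits also fell on an exon of the antisense noncoding gene AC166172.4, starts of AC166172.2 and AC166575.1 lay within 3 kb, and the start of the miRNA gene Gm24970 was the nearest to the stronger one. The nearest Mof+/- peak was 2071946 bp away.

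Tgif1, the corepressor gene, lies on the minus strand of chromosome 17 (70844205 to 70853546) and has 11 annotated start sites. A single Mof+/+ peak, at 70849763 to 70854632, spanned 4870 bp, wider than 99.3% of the Mof+/+ list, and covered 8 of the 11 start sites. The start of the pseudogene Gm9320, on the opposite strand, was within 3 kb of it. Its fold enrichment was 5.10 from 24 fragments (15.4 to 35.7), with a −log10 q-value of 8.23. A pair of narrower Mof+/+ peaks followed downstream. The first had a fold enrichment of 3.35 from 21 fragments (13.0 to 32.1), and the second, the weakest of all member peaks, had 2.38 from 13 fragments (6.92 to 22.2) and a −log10 q-value of 1.02.

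In the Mof+/- list, Tgif1 held 4 of the 6 member peaks, all overlapping the wide Mof+/+ peak. In the direction of transcription, their summits lay 823, 1684, 2591 and 3860 bp into the gene. Their fold enrichments in that order were 4.60, 3.71, 4.29 and 4.60, from 14, 14, 13 and 14 fragments. Each was between 246 and 504 bp wide, so the Mof+/- peaks were narrow islands along the Mof+/+ domain, with the one farthest into the gene reaching past its edge. The island at 2591 bp had its summit 51 bp from the Mof+/+ summit. Together they covered 5 of the 11 start sites. With peaks closer than 1000 bp joined, the Mof+/- islands became 1 region of 3202 bp and the Mof+/+ domain 1 region of 5844 bp.

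**Figure D3:**
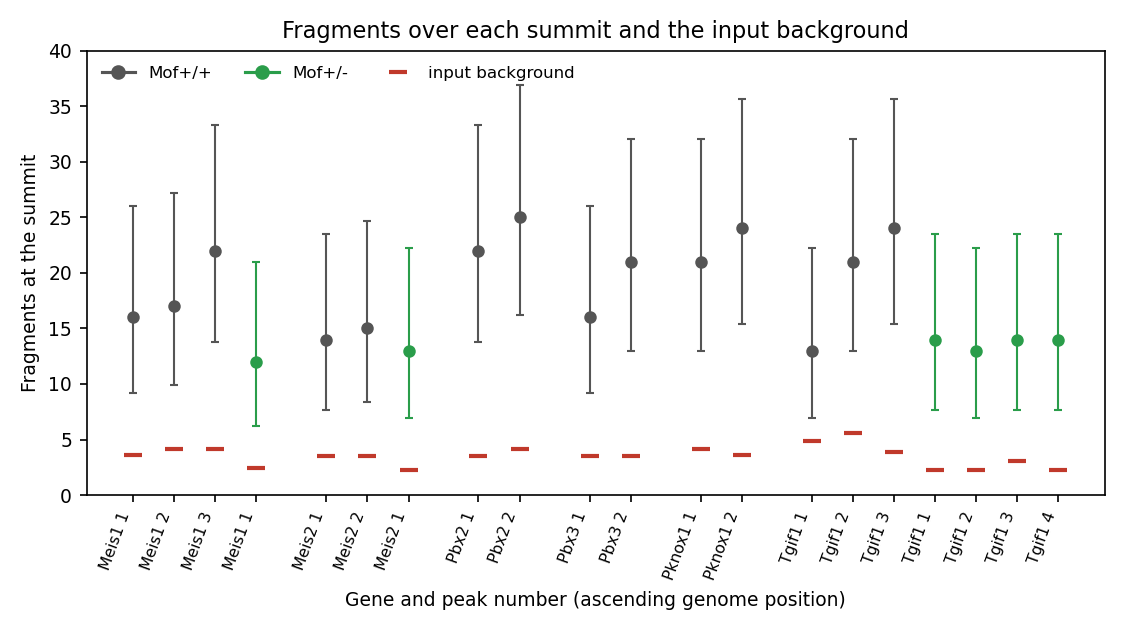
MOF fragments over the summit of each member peak, by gene and genotype, with exact 95% Poisson intervals as bars. The Mof+/+ summits hold 13 to 25 fragments and the Mof+/- summits 12 to 14, counts that are not scaled for the lower input background of the Mof+/- list.

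For Meis3, Pbx4 and Pknox2, which had no peak in either list, distances are from the nearest of their start sites. Meis3, on the plus strand of chromosome 7 (16175090 to 16186504), was 55431 bp from the nearest Mof+/+ peak, which was near Kptn and had a fold enrichment of 3.10. Pknox2, on the minus strand of chromosome 9 (36890982 to 37147407), was 83009 bp from the nearest one, near Slc37a2, with a fold enrichment of 2.48. Pbx4, a member expressed mostly in testis, lies on the plus strand of chromosome 8 (69832491 to 69872292) and came closest to being counted. A Mof+/+ peak with a fold enrichment of 3.76 was 9468 bp away, near Lpar2. The nearest Mof+/- peaks of the 3 genes were 217131 bp or more away. A missing call says only that no peak passed the caller's threshold at this depth.

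Over the 14 Mof+/+ peaks, the median fold enrichment was 4.01 (range 2.38 to 5.38), against 3.40 for the whole list. The median number of fragments was 21 (13 to 25) against 16, and the median width was 734 bp (278 to 4870) against 609. Most Mof+/+ member peaks were thus above the middle of their list. Over the 6 Mof+/- peaks the median fold enrichment was 4.29 (3.71 to 4.60), the value of the whole list, with 13.5 fragments (12 to 14) against 14. Their median width was 288 bp (246 to 504) against 434.5. The Mof+/- member peaks were therefore average in fold and narrow for their list.

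The calls of the genotypes were also set against a common limit. Input background went down to 3.52 fragments for Mof+/+ and to 2.26 for Mof+/-, a ratio of 1.56, and the weakest −log10 p-values called were 3.25 and 4.72. Library totals were not used here. Of the 14 Mof+/+ member peaks, 13 passed the limit of 4.72 seen for Mof+/-, as did 68.6% of all Mof+/+ peaks. When fragments and background were first scaled to the Mof+/- background, 7 passed, against 36.9% of all. These 7 were both peaks of Pbx2, both of Pknox1 and 1 each of Meis1, Pbx3 and Tgif1. Pbx2, Pbx3 and Pknox1, with no Mof+/- call, had 14.1, 13.5 and 15.4 scaled fragments at the summit with the highest fold enrichment of each gene. Meis2, with a Mof+/- call, had 9.63 and no summit past the limit. These scaled values are point values, without the counting error of the 13 to 25 fragments they come from, so they do not show which peaks the caller would have kept. Depth as a part of the difference in number of peaks cannot be told apart from genotype here, as there was 1 list for each.

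CpG content varied widely among the summits. In the window that reaches 150 bases to either side of the summit, the Mof+/+ member peaks held a median of 16 CpG (1 to 50), against 7 in the whole list, and the Mof+/- member peaks also 16 (12 to 22), against 10. Of all member summits, the stronger ones of Pbx3 and Pknox1 held the most, 50 and 49 CpG, and their other summits held 29 and 17. The Pbx2 summits held 25 and 4, and the Mof+/+ summits of Meis1, Meis2 and Tgif1 held 1 to 16. Summits of the same gene could thus lie far apart, as at Pbx2 and Pknox1.

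Chromatin had been cut in part with CviKI-1, an enzyme that cuts at RGCY, where R stands for a purine and Y for a pyrimidine. The same windows at Mof+/+ member summits held a median of 7 such sites (2 to 15), the same as the whole list, and those at Mof+/- member summits 3.5 (1 to 7), against 5. Per kb of peak, the medians were 20.7 sites for Mof+/+ member peaks and 8.30 for Mof+/- member peaks, against 21.2 and 13.4 in the lists. The Mof+/- peak of Meis2 held 0 sites per kb and that of Meis1 3.72, while those of Tgif1, by rising genome position, held 6.51, 25.8, 10.1 and 12.2. Of the whole lists 6.84% of Mof+/- and 0.516% of Mof+/+ peaks held none. The part of cut sites in which peaks were called was not tested.

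**Figure D4:**
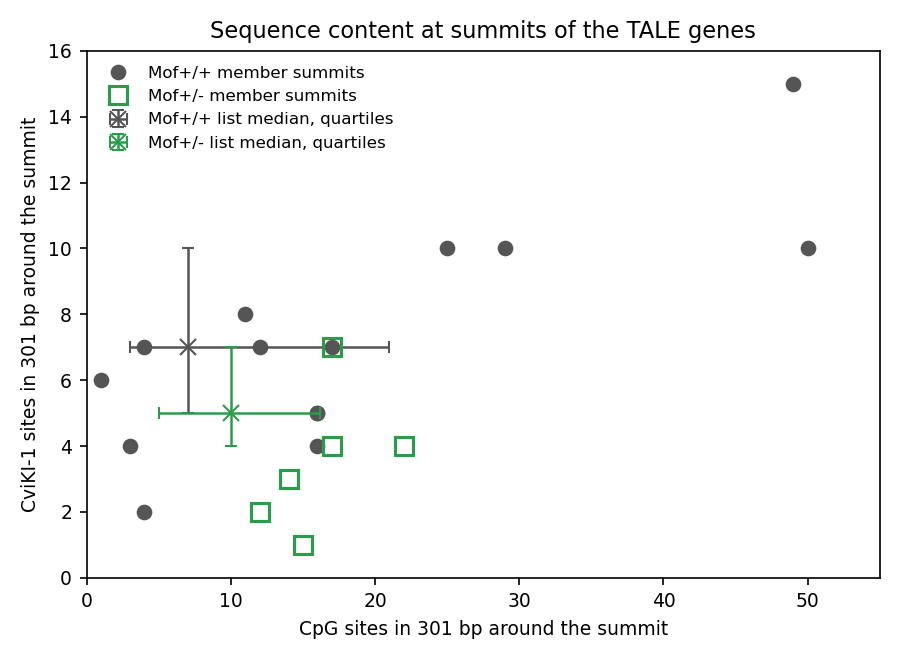
CpG dinucleotides (horizontal axis) and CviKI-1 sites (vertical axis) in the window of 150 bases on either side of each member summit, with Mof+/+ as filled circles and Mof+/- as open squares. Crosses give the median and quartiles of each list, and points with equal counts coincide. The stronger summits of Pbx3 and Pknox1 reach 50 and 49 CpG, while the Mof+/- summits lie between 12 and 22 CpG and 1 and 7 sites.

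The motif TGACAG, which MEIS and PREP proteins bind, was searched on both strands of the same windows. It was found in 1 of 14 Mof+/+ member windows (7.14%), that of the strongest Pknox1 peak, and in 18.0% of all Mof+/+ windows. It was in 0 of 6 Mof+/- member windows, against 13.0% of all. The composite PBX and HOX motif TGATTGAT was in 0 of 14 and 0 of 6 windows, against 0.521% and 0.419% of all. The PBX and MEIS motif TGATTGAC was in 0 of 14 and 0 of 6 as well, against 0.486% and 0% of all. The end of TGATTGAC can overlap TGACAG. Over whole peaks, which differ in width, TGACAG was in 6 of 14 Mof+/+ member peaks, 1 in each of the 6 genes, against 39.1% of all Mof+/+ peaks, and in 0 of 6 Mof+/- member peaks, against 23.3% of all. TGATTGAC was in 1 Mof+/+ member peak, that inside Meis2, and TGATTGAT in 1, the strongest of Pknox1, against 1.56% and 1.52% of all, and both were in 0 of 6 Mof+/- member peaks, against 1.12% and 0.978%. These counts say only which letters the stretches hold.

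Related genes were counted in the same way, without a test, since peaks entered the choice of all lists. Of the 6 Iroquois genes, the other TALE genes counted here, 3 had a Mof+/+ peak (50%, 18.8 to 81.2) and 2 a Mof+/- peak, which were Irx1 and Irx5. The highest fold enrichments at Irx5 were 6.86 and 5.83. Of 39 Hox genes, whose products bind DNA with PBX and MEIS, 31 had a Mof+/+ peak (79.5%, 64.5 to 89.2) and 15 a Mof+/- peak (38.5%, 24.9 to 54.1). Hox neighbours share peaks, so they are not separate observations. Those with a Mof+/- peak were Hoxa9, Hoxa10, Hoxa11, Hoxa13, Hoxb3, Hoxb4, Hoxb5, Hoxb6, Hoxb9, Hoxc5, Hoxc6, Hoxc10, Hoxd10, Hoxd11 and Hoxd13. Hoxd13 had the highest Mof+/- fold enrichment among them, 7.67, and the highest for Mof+/+ was 6.64, at Hoxa3 and Hoxa4.

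Of 8 partner genes of TGIF1 and PBX (Ctbp1, Ctbp2, Sin3a, Hdac1, Smad3, Ski, Skil and Pbxip1), 7 had a Mof+/+ peak (87.5%, 52.9 to 97.8), with Ctbp2 the exception. A Mof+/- peak was found at 2 of the 8, Ski (3.99-fold) and Skil (4.04-fold), which encode corepressors of SMAD proteins. Skil also had the highest Mof+/+ value, 7.30. Of their Mof+/+ peaks, 2 of 31 (6.45%) overlapped a Mof+/- peak, compared with 3 of 14 for the members, 18 of 55 for the Hox genes and 3 of 5 for the Iroquois genes. The plot of shares by list gives the gene shares side by side, as a description.

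**Figure D5:**
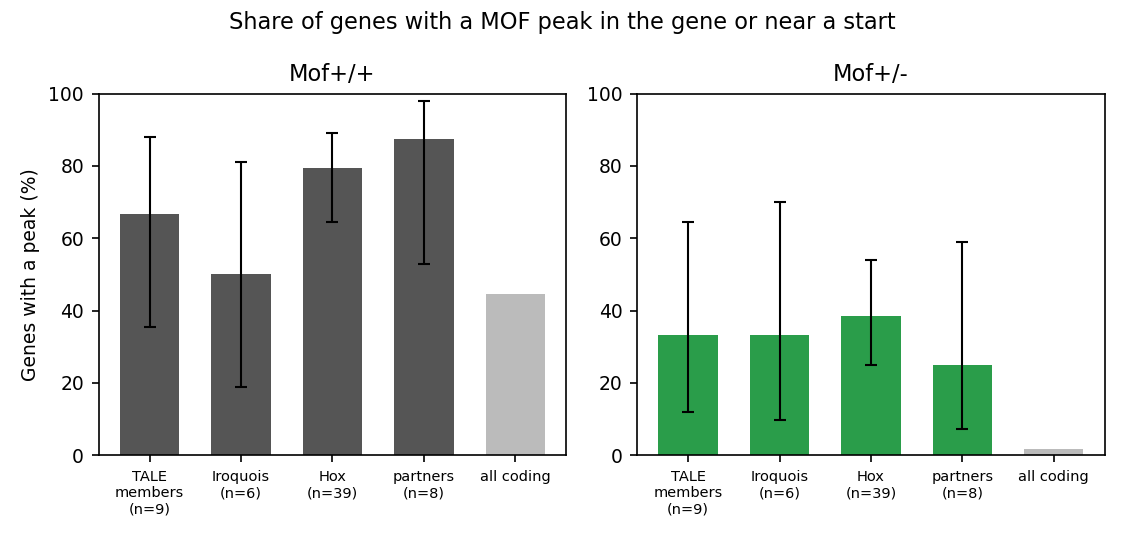
Percent of genes with a MOF peak in the gene or within 3 kb of a start site, for the 9 TALE members, 6 Iroquois, 39 Hox and 8 partner genes, with 95% Wilson intervals as bars, which take genes as independent although Hox neighbours share peaks, and for all protein-coding genes (grey). The left panel is Mof+/+ and the right panel Mof+/-, and the members stand at 66.7% and 33.3%, against 44.5% and 1.89% of all.

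The labelled tissue was checked through genes typical of cell types, for which a MOF peak is no measure of expression. In Mof+/+, 6 of 8 adipocyte genes had a peak, all but Lep and Adrb3, against 44.5% of all coding genes. So did 5 of 5 B cell, 4 of 4 T cell, 1 of 4 macrophage, 1 of 4 endothelial, 2 of 4 progenitor and fibroblast, and 1 of 4 mesothelial genes. In Mof+/-, where 1.89% of all coding genes had a peak, 0 of 8 adipocyte genes had one, and Pax5, Pdgfra and Wt1 were the only listed marker genes that did. Their part in the peaks of the TALE genes was not tested.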

How the data were processed

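MOF ChIP-seq, H3 ChIP-seq and input were made in Mof+/+ and Mof+/- visceral fat, and 1 deposited MOF peak list per genotype was used. The authors mapped reads to GRCm38 with snakePipes and called peaks with MACS2 (version 2.1.1.20160309.3 per the submitters' processing notes) against input, at a q-value threshold of 0.1. Their methods mention merging peaks within 1000 bp, which the deposited lists do not show. The deposited fold enrichment is a ratio to the input background. The −log10 values of p and q, as deposited, describe the summit, and the deposited summit offset gave its position. The deposited score, the value column not used (1 per list), repeats the q-value.

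Genes and start sites came from GENCODE M21 and sequence from RefSeq GRCm38. Of the lists' 19773 and 731 peaks, the 19753 and 716 on chromosomes 1 to 19, X and Y were used. No library totals were given, so depth was read from fragments and background, solved from fold enrichment and p-value within a relative tolerance of 0.01 for 19739 and 704 peaks and tested on simulated data. Scripts ran in Python 3.11.15 with numpy 2.4.6, scipy 1.17.1 and matplotlib 3.10.9. All 9 members are named. So are other genes where a start site lies within 3 kb of a member peak or a peak is the nearest outside. Of the other lists, genes with a Mof+/- peak or the highest fold enrichment are named. The 8 partner genes are listed in full. Genes named as lacking a peak (Ctbp2, Lep and Adrb3) were chosen after their values were seen. Members, lists and motifs were chosen with earlier results of these data known. The MOF antibody in the labels differs from that in the study's reporting summary.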

Additional observations from a re-analysis of the deposited data

How the results depend on the processing

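Of the values under alternatives, 6 moved and 31 did not, where a count moved if it changed by over 1.5 times, a share if it left the 95% Wilson interval of the reported share, and a median if it left the quartiles of the member peaks. At a q-value of at most 0.01, 2 members had a Mof+/- peak, without Meis1, and 5 Mof+/- peaks remained. At a q-value of at most 0.001, Tgif1 was the 1 member left with a Mof+/- peak, and 2 of the 6 Mof+/- peaks remained. With peaks within 1000 bp merged, the members had 8 Mof+/+ and 3 Mof+/- regions. When at least 50% of both peaks had to be shared, the overlapping share of Mof+/+ peaks was 0%, as the Mof+/- peaks were narrower. Within its wide interval (7.57 to 47.6) it still ranged from 8.33%, at a q-value of at most 0.001, to 42.9%, when peaks within 1000 bp counted as shared. Scaling to the Mof+/- background, an alternative chosen after seeing the data, left 7 Mof+/+ peaks past the weakest Mof+/- p-value. With the nearest start site deciding the gene, 5 members had a Mof+/+ peak, without Pbx2, and 2 a Mof+/- peak, without Meis2.

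No paired analysis was possible because the peak lists carry no replicate numbers, and leaving out replicates was not run for the same reason. Member summits rested on 12 to 25 fragments, which limits the precision of each value.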
